A study of Homo sapiens with 21 samples.

Results

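The 7 genes described here are homeobox genes of the developing neural plate: UNCX, BARHL2, DBX1 and the Iroquois genes IRX1, IRX2, IRX3 and IRX5. They are 7 of the 61268 features in the count table. They were chosen as homeobox genes that were lower after 12 h of doxycycline, together with their Iroquois relatives, so the 12 h contrast between induced and uninduced cells picked them and is given as a description only. RNA came from human H9 embryonic stem cells (WA-09, an established line) differentiated toward progenitors like those of the LGE (lateral ganglionic eminence), from which striatal neurons arise. All groups, controls included, carried a 2xFLAG-GSX2 WT transgene behind the doxycycline-inducible TRE3G promoter, and GSX2 is itself a homeobox regulator of the LGE. All groups also share a differentiation in E6 medium with the SMAD-pathway inhibitors LDN193189 and SB431542, the WNT-pathway inhibitors XAV939 and IWP2, and Activin A. The Dox groups received 100 ng/mL doxycycline for 12 h from day 10 and were collected 12, 24 and 48 h after day 10, so the last 2 of these times follow withdrawal. The NoDox groups were collected at the same 3 times without the drug, and the day 10 group was collected at the start. Each of the 7 groups held 3 libraries. No group had doxycycline without the transgene, the cells are 1 line, and the labels do not say whether the 3 libraries of a group came from separate cultures. The p-values therefore cover only the spread between libraries, which may be technical.

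Homeobox genes encode transcription factors that bind DNA through a homeodomain, most often at sites with a TAAT core, and divide the neural tube into territories and boundaries. UNCX is a paired-type factor that in mouse maintains the posterior half-somites and is also made in forebrain neurons. BARHL2 is a BAR-class factor of the diencephalon and retina, needed in mouse for retinal amacrine cells. DBX1 marks the ventral pallium next to the pallial-subpallial boundary in mouse and, in the spinal cord, progenitors of commissural interneurons. The Iroquois factors are of the TALE class and lie in a pair of gene clusters, with IRX1 and IRX2 in one and IRX3 and IRX5 in the other. In chick, Irx3 and the anterior factor Six3 repress each other, and the border between them is where the zona limitans, the boundary inside the diencephalon, forms.

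The genes lie on hg38 as follows. UNCX spans chr7:1232872-1237326 on the plus strand, BARHL2 spans chr1:90711539-90717302 on the minus strand, and DBX1 spans chr11:20156155-20160475 on the minus strand. On chromosome 5, IRX1 spans chr5:3595832-3601403 on the plus strand and IRX2 spans chr5:2745845-2751677 on the minus strand, 844.2 kb apart. On chromosome 16, IRX3 spans chr16:54283304-54286787 on the minus strand and IRX5 spans chr16:54930865-54934485 on the plus strand, 644.1 kb apart.

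Promoter windows were available from RefSeq (GRCh38.p14) for 5 of the 7 genes; those of IRX3 and IRX5 are named only. The 4 printed here belong to the genes that were lower in Dox than in NoDox cells at 24 h, each from 250 bases before to 50 bases after the start of the gene, on the gene's own strand. The windows are chr7:1232622-1232921 on the plus strand for UNCX, chr1:90717253-90717552 on the minus strand for BARHL2, chr11:20160426-20160725 on the minus strand for DBX1 and chr5:3595582-3595881 on the plus strand for IRX1. Capitals mark TAATTA, a palindrome that many homeodomains bind, and TAATTG, written CAATTA where it lies on the other strand.
UNCX: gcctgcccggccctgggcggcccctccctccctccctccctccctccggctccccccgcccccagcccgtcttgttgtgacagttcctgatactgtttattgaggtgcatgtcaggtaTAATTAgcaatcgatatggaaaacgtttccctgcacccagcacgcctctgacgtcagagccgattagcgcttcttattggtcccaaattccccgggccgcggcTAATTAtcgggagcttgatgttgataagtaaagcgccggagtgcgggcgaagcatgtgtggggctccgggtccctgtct
BARHL2: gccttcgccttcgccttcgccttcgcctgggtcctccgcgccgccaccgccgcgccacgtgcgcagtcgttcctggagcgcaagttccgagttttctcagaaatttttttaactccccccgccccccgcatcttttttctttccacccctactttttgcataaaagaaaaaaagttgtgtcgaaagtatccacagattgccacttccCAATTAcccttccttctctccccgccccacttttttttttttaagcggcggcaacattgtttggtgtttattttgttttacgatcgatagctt
DBX1: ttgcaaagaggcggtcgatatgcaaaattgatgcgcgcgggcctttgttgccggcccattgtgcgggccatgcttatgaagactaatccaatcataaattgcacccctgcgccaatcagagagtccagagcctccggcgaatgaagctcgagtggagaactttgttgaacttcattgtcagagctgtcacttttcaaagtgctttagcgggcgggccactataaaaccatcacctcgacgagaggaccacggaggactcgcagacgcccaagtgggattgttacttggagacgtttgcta
IRX1: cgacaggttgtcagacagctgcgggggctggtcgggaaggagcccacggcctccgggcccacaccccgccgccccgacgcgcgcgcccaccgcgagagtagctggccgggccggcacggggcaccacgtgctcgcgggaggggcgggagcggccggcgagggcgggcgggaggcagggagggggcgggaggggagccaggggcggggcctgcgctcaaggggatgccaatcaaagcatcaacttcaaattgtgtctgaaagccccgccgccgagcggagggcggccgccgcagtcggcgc
The UNCX window held 2 TAATTA sequences, 132 and 29 bases upstream of the start. Among 35116 promoter windows of the same length, 4.84% held at least 1 TAATTA on either strand and 0.416% held at least 2. The BARHL2 window held no TAATTA and 1 TAATTG, 43 bases upstream, which 7.38% of windows hold at least once; TAATTG was added to the search after the sequences had been read. DBX1 and IRX1 had neither sequence in the window. The core TAAT, which lies inside both longer motifs, was counted on both strands, so each palindromic TAATTA counts 2 times. By that count it was found 5 times in UNCX, 1 time in BARHL2, 1 time in DBX1 and 0 times in IRX1. Of all windows, 50.2% held it at least once and 19.1% at least 3 times. IRX1 had a GC content of 76.0% and UNCX 59.7%, against a median of 58.7% over all windows; the IRX2 window, with 73.3% GC, held none of the 3 motifs. A match describes letters and says nothing about binding.

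Library totals ran from 14.4 to 33.8 M counts, and levels are given as CPM, counts scaled to the size of the library, after TMM scaling. Replicates differed by more than sampling noise, and the 12 h Dox replicate 3 and the day 10 replicate 1 stood furthest from their groups, at up to 25.3 and 14.3 for the chi-square over its degrees of freedom. The transgene averaged 876 CPM at 12 h, 19.5 CPM at 24 h and 0.934 CPM at 48 h in Dox cells, and at most 0.309 CPM in the NoDox and day 10 groups. Of all features, 19655 passed the filter on low counts and were tested with edgeR's quasi-likelihood test, and all 7 genes were among them. DBX1, BARHL2 and IRX5 had few reads, with 0 to 22, 0 to 162 and 3 to 24 counts per library. These 3 genes carry the widest errors. TMM assumes that most features do not differ; scaling by library totals alone moved the median log2 fold change of all features by -0.16 for Dox 48 h against Dox 24 h and by 0.18 for the 12 h contrast. In the other comparisons that shift was at most 0.08 in size. Library totals gave 1017 higher and 2835 lower features for Dox against NoDox at 48 h, where TMM gave 1814 and 1757, and moved the split likewise for the difference of Dox effects (1886 and 3190, against 2491 and 2573), for NoDox 48 h against day 10 (3176 and 5174, against 4215 and 3973) and for Dox 48 h against Dox 24 h (4103 and 7720, against 5782 and 5793). No call on the 7 genes changed under that scaling.

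Per kilobase of exon, UNCX had the highest mean level over the 21 libraries, at 5.96 CPM per kb, followed by IRX2 at 3.62 and IRX1 at 2.36 CPM per kb. IRX3 averaged 0.841, BARHL2 0.483, DBX1 0.301 and IRX5 0.206 CPM per kb. Over the 15 libraries outside the 12 h contrast, which chose the genes, the highest UNCX library was 17.2-fold above the lowest, with 27.2 and 1.58 CPM, and the highest IRX2 library was 2.09-fold above the lowest, with 19.5 and 9.32 CPM.

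At 12 h of doxycycline, the contrast that chose the genes, UNCX was at 0.358, 0.577 and 0.510 CPM in the Dox libraries, against 21.9, 16.7 and 15.8 CPM in the NoDox libraries. That is 2.66% of the NoDox level, a log2 fold change of -5.23 ± 0.22 (the ± of a log2 value is an approximate standard error throughout, and that of a CPM level is the SD; n = 3 per group). BARHL2 had 2, 2 and 0 reads in Dox libraries, against 34, 14 and 12 reads in NoDox libraries. DBX1 had 1 read over the 3 Dox libraries, against 50 over the 3 NoDox libraries, a ratio of 1.75%. Its exact 95% counting interval of 0.0434% to 10.2% leaves out the spread between libraries and the choice of the gene on this contrast. In all 3 of these genes the Dox libraries lay below every NoDox library, as they did in 6 of the 7 genes; 23.1% of all tested features were separated in this way.

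The Iroquois genes spread out at 12 h. IRX1 had 1.47, 1.35 and 1.32 CPM in Dox libraries, against 5.55, 6.63 and 6.81 CPM in NoDox libraries, 21.8% of the NoDox level. IRX3 was at 1.91 ± 0.224 CPM (SD, n = 3) in Dox libraries and 2.52 ± 0.0673 CPM in NoDox libraries. IRX5 averaged 0.476 ± 0.118 CPM in Dox libraries and 0.826 ± 0.246 CPM in NoDox libraries. IRX2 was the gene whose groups overlapped, with 9.69, 9.97 and 10.96 CPM in Dox libraries, against 10.5, 12.6 and 10.3 CPM in NoDox libraries. IRX5 and IRX3 were the most weakly lowered of the genes without overlap, at 57.7% and 75.7% of the NoDox level, and IRX2 stood at 91.8%. Of the features tested, 19.9% were called lower at this time; since the contrast chose the genes, nothing is read from this.

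**Figure D1:**
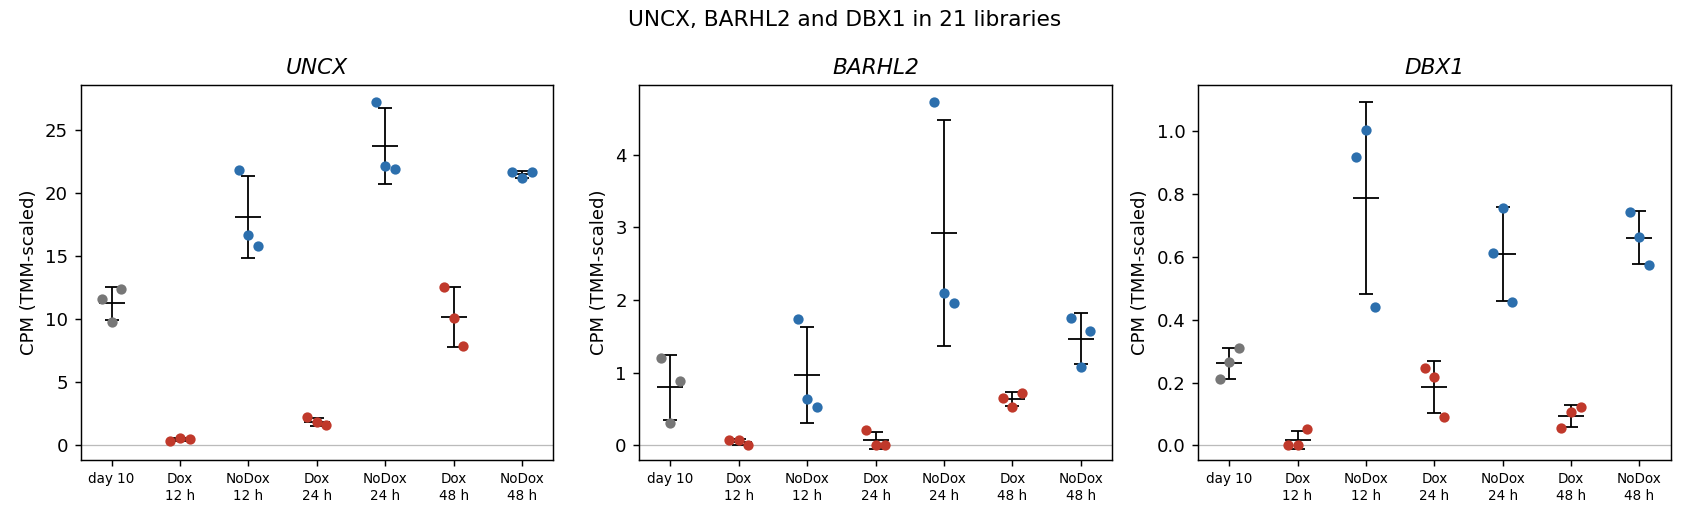
Levels of UNCX, BARHL2 and DBX1 in CPM (y axis) in every library of the 7 groups (x axis); points are replicates, and black bars are the mean ± SD (n = 3). UNCX in Dox cells is at 0.482 CPM at 12 h, 1.88 CPM at 24 h and 10.2 CPM at 48 h, while its NoDox groups stay at 18.1 CPM or more.

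At 24 h, 12 h after doxycycline was withdrawn, UNCX, BARHL2, DBX1 and IRX1 were still lower in Dox than in NoDox cells, IRX3 was higher, and IRX2 and IRX5 did not pass the test. The called genes were 4 lower and 1 higher at an adjusted p below 0.05, where 16.9% of all tested features were called lower and 17% higher. The replicates did not overlap for these 5 genes, nor for 51.9% of all tested features. These libraries were not used to choose the genes. In bulk RNA, fewer cells of a type and less RNA per cell cannot be told apart.

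UNCX had 2.23, 1.83 and 1.58 CPM in Dox libraries, against 27.2, 22.2 and 21.9 CPM in NoDox libraries. Every Dox library was more than 10 CPM below every NoDox library, and the level was 7.90% of that in NoDox cells. The log2 fold change was -3.66 ± 0.17 (adjusted p = 3.96e-16, edgeR's quasi-likelihood test with Benjamini-Hochberg adjustment over all features, as for each adjusted p that follows).

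BARHL2 had 5, 0 and 0 reads in Dox libraries (0.206, 0 and 0 CPM), against 162, 50 and 43 reads in NoDox libraries (4.72, 2.10 and 1.96 CPM). The groups were far apart, and all reads of the Dox group came from its replicate 1. The log2 fold change was -5.28 ± 0.69 (adjusted p = 2.01e-06). Without Dox replicate 1 the fitted value was -9.03, which rests on 0 reads and is no bound, and without NoDox replicate 1 it was -4.71; the call held in both.

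DBX1 had 0.247, 0.217 and 0.0904 CPM in Dox libraries, against 0.612, 0.755 and 0.457 CPM in NoDox libraries. The groups did not overlap, and these levels are 13 reads in all in the Dox group, against 49 in the NoDox group. The log2 fold change was -1.68 ± 0.47 (adjusted p = 0.00561).

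Among the Iroquois genes, IRX1 was at 2.10, 2.09 and 1.76 CPM in Dox libraries, against 3.41, 3.90 and 5.53 CPM in NoDox libraries, with no overlap. Its log2 fold change was -1.08 ± 0.19 (adjusted p = 3e-05), 46.4% of the NoDox level. IRX3 went the other way, with 4.74, 3.52 and 4.79 CPM in Dox libraries, against 1.08, 1.13 and 2.06 CPM in NoDox libraries. Every Dox library exceeded every NoDox library, and the log2 fold change was 1.65 ± 0.22 (adjusted p = 7.21e-07).

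IRX2 was at 9.76 ± 0.445 CPM in Dox libraries and 9.86 ± 0.910 CPM in NoDox libraries (SD, n = 3 each). The log2 fold change was -0.01 ± 0.10 (adjusted p = 0.949), with a 95% interval of -0.23 to 0.21. IRX5 was at 0.650 ± 0.0826 CPM in Dox libraries and 0.526 ± 0.226 CPM in NoDox libraries. Its log2 fold change of 0.33 ± 0.41 (adjusted p = 0.59) has a 95% interval of -0.55 to 1.21, which leaves changes of more than a doubling unresolved at this depth.

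The Iroquois genes also stood in different proportions to each other at 24 h. Within the chromosome 5 cluster and per length, IRX1 was 0.364, 0.357 and 0.281 times IRX2 in the 24 h Dox libraries, against 0.596, 0.685 and 0.827 times in the NoDox libraries. At 48 h that ratio was 0.737, 0.791 and 0.765 in Dox libraries, against 0.548, 0.634 and 0.805 in NoDox libraries, which overlap. Across clusters at 24 h, IRX3 per length was 1.60, 1.20 and 1.93 times IRX1 in Dox libraries. In 24 h NoDox libraries it was 0.224, 0.206 and 0.264 times IRX1. At 48 h it was 0.1329, 0.2223 and 0.1784 times in Dox libraries, against 0.1229, 0.1605 and 0.1526 times in NoDox libraries, which overlap. An exact permutation test on the log2 of either ratio, Dox against NoDox, gave p = 0.1 at 24 h and 0.4 at 48 h, unadjusted. With 3 libraries per group that test can give no p below 0.1. A ratio within a library describes how the genes stood to each other, not which of them changed.

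**Figure D2:**
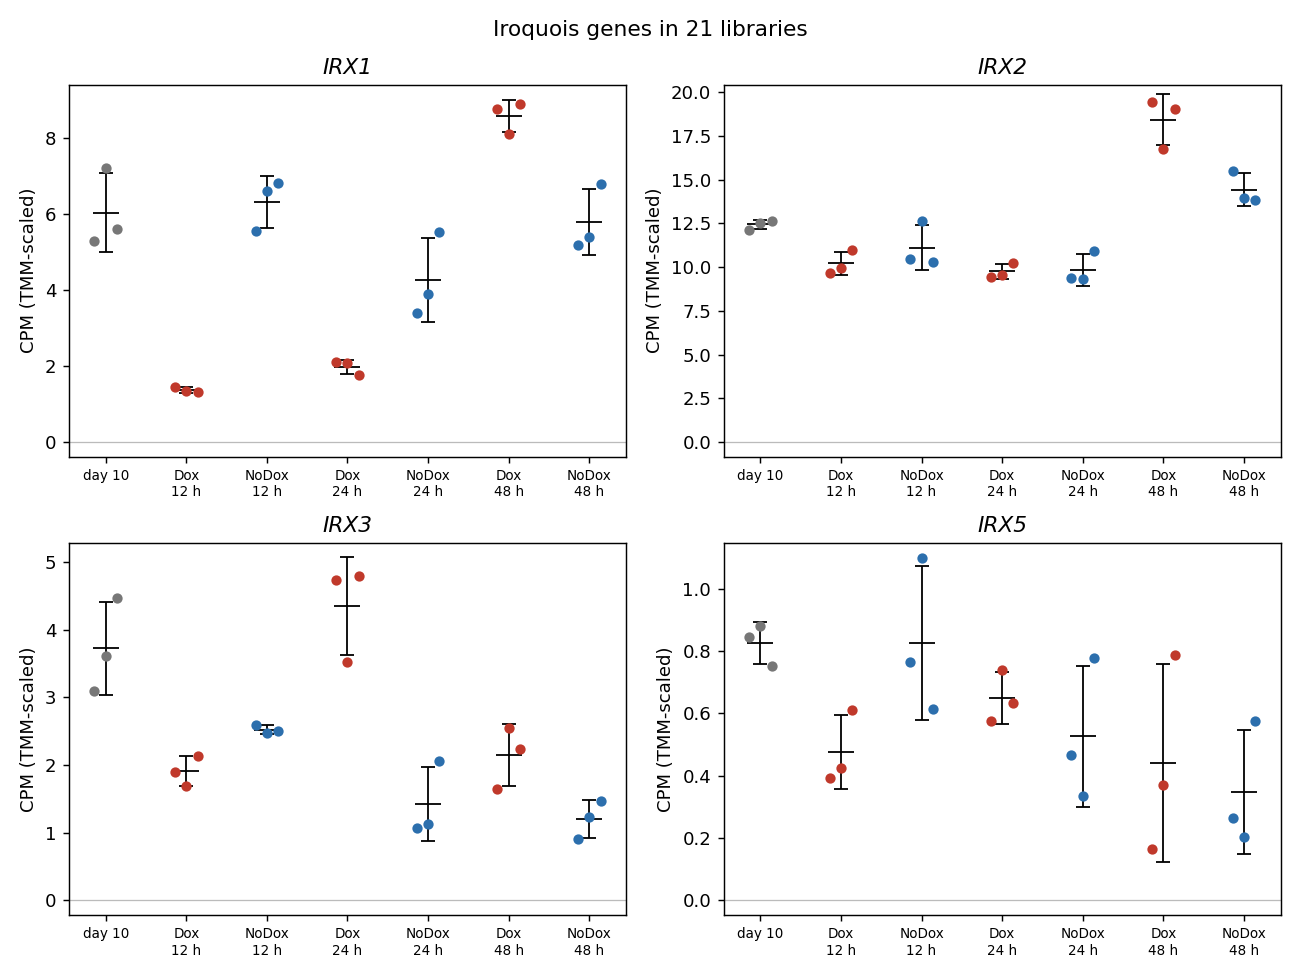
Levels of IRX1, IRX2, IRX3 and IRX5 in CPM (y axis) in every library of the 7 groups (x axis); points are replicates, and black bars are the mean ± SD (n = 3). IRX3 is highest in the 24 h Dox group (4.35 CPM), IRX1 and IRX2 in the 48 h Dox group (8.60 and 18.4 CPM).

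At 48 h, 36 h after withdrawal, UNCX and DBX1 were lower in Dox than in NoDox cells and IRX1, IRX2 and IRX3 were higher. The count was 2 lower and 3 higher, where 8.94% of all tested features were called lower and 9.23% higher. Replicates did not overlap for 6 of the 7 genes and for 36% of all tested features. UNCX had 12.6, 10.1 and 7.88 CPM in Dox libraries, against 21.7, 21.2 and 21.7 CPM in NoDox libraries. It was at 47.4% of the NoDox level, with no overlap and a log2 fold change of -1.07 ± 0.14 (adjusted p = 3.32e-06). DBX1 had 1, 2 and 2 reads in Dox libraries, against 14, 13 and 11 reads in NoDox libraries. Its log2 fold change was -2.75 ± 0.59 (adjusted p = 0.00129), with groups that did not overlap.

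BARHL2 was at 0.658, 0.531 and 0.727 CPM in Dox libraries, against 1.75, 1.07 and 1.57 CPM in NoDox libraries. The groups did not overlap, but the log2 fold change of -1.20 ± 0.55 did not pass the test (adjusted p = 0.139), and its 95% interval, before any adjustment, was -2.37 to -0.02. It passed with a replicate block (adjusted p = 0.0349), without the filter (0.0152) and with only the 2 groups compared in the fit (0.0084), the lowest of a range of 0.0084 to 0.28 over all alternatives.

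IRX1 was at 8.77, 8.12 and 8.91 CPM in Dox libraries, against 5.20, 5.41 and 6.80 CPM in NoDox libraries. At 24 h it had been on the other side of the NoDox level; at 48 h each Dox library was above each NoDox library, and the log2 fold change was 0.57 ± 0.16 (adjusted p = 0.0121). IRX2, at 19.5, 16.8 and 19.0 CPM in Dox libraries, against 15.5, 13.9 and 13.8 CPM in NoDox libraries, had a log2 fold change of 0.35 ± 0.10 (adjusted p = 0.0131). IRX3, at 1.64, 2.55 and 2.24 CPM in Dox libraries, against 0.903, 1.23 and 1.46 CPM in NoDox libraries, had a log2 fold change of 0.84 ± 0.27 (adjusted p = 0.0287).

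These 3 calls sat near the threshold, and all kept their sign when a library was left out. IRX1 was not called without NoDox replicate 1 (0.49, adjusted p = 0.0569) or NoDox replicate 2 (0.52, 0.0638). IRX2 was not called without NoDox replicate 2 (0.33, adjusted p = 0.0603), NoDox replicate 3 (0.32, 0.0576), Dox replicate 1 (0.30, 0.0782) or Dox replicate 3 (0.32, 0.0572). IRX3 was not called without NoDox replicate 1 (0.67, adjusted p = 0.122), NoDox replicate 2 (0.85, 0.0763), Dox replicate 2 (0.68, 0.136) or Dox replicate 3 (0.80, 0.0779). IRX5, with 23 reads in the Dox group and 20 in the NoDox group, had a log2 fold change of 0.31 ± 0.52 (adjusted p = 0.739) and a 95% interval of -0.81 to 1.43; without Dox replicate 3 the value was -0.37.

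The difference of the Dox effect between 48 h and 24 h was tested directly and was called for 3 of the 7 genes, all with a more positive effect at 48 h, where 12.7% of all tested features were called in that direction. UNCX differed by 2.59 ± 0.23 on the log2 scale (adjusted p = 1.86e-09), BARHL2 by 4.08 ± 1.01 (adjusted p = 0.00441) and IRX1 by 1.65 ± 0.24 (adjusted p = 9.2e-06). For BARHL2 the fitted difference was 7.83 without 24 h Dox replicate 1, the library with its only reads in that group, 3.53 and 3.56 without 24 h Dox replicates 2 and 3, and 3.52 without 24 h NoDox replicate 1, and the call held in all 4. DBX1 was lower in Dox cells at both times, and its difference of -1.07 ± 0.82 (adjusted p = 0.365) has a 95% interval of -2.82 to 0.68. IRX2 differed by 0.36 ± 0.14 (adjusted p = 0.0627), and passed without 48 h NoDox replicate 1 (0.42, 0.0447) or 48 h Dox replicate 2 (0.41, 0.048). IRX3 differed by -0.81 ± 0.35 (adjusted p = 0.0928), and passed without 24 h NoDox replicate 3 (-1.14, 0.0176). IRX5 differed by -0.02 ± 0.72 (adjusted p = 0.99).

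**Figure D3:**
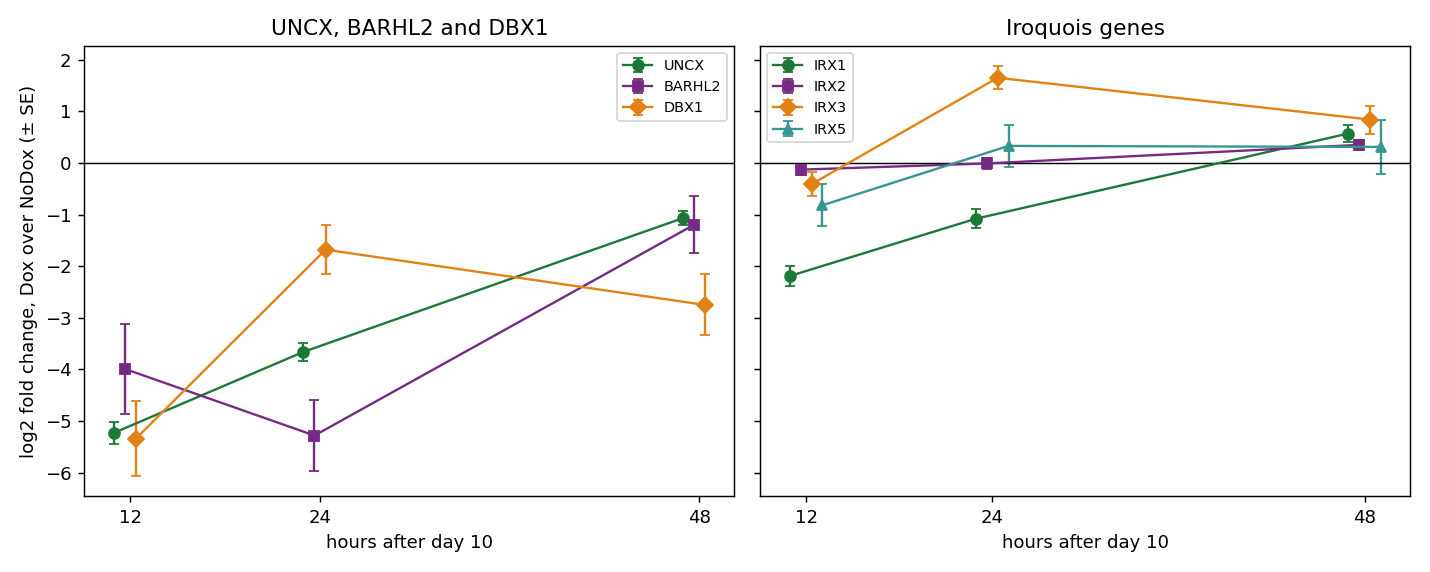
Log2 fold change of Dox over NoDox (y axis) against hours after day 10 (x axis) for UNCX, BARHL2 and DBX1 (left) and for the Iroquois genes (right); bars are ± approximate SE, and the 12 h values are those the genes were chosen on. UNCX is at -5.23, -3.66 and -1.07 at 12, 24 and 48 h, whereas IRX1 is at -1.08 at 24 h and 0.57 at 48 h.

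Within the Dox arm, 48 h against 24 h, UNCX, BARHL2, IRX1 and IRX2 rose and IRX3 fell, 5 of the 7 genes; 29.4% of all tested features were called higher and 29.5% lower. UNCX was at 10.2 ± 2.36 CPM in 48 h Dox cells and 1.88 ± 0.324 CPM in 24 h Dox cells (SD, n = 3 each), a log2 fold change of 2.43 ± 0.19 (adjusted p = 1.08e-11). BARHL2 had 12, 10 and 12 reads in 48 h Dox libraries, against 5, 0 and 0 reads in 24 h Dox libraries, with a fitted log2 fold change of 3.05 ± 0.92 (adjusted p = 0.0071). That value was 6.80 without 24 h Dox replicate 1 and stayed called. IRX1 rose by 2.11 ± 0.18 (adjusted p = 5.39e-11) and IRX2 by 0.92 ± 0.10 (adjusted p = 1.01e-08). IRX3 was at 2.15 ± 0.460 CPM in 48 h Dox cells and 4.35 ± 0.718 CPM in 24 h Dox cells (log2 fold change -1.02 ± 0.22, adjusted p = 0.000236). DBX1 (-0.96 ± 0.72, adjusted p = 0.259) and IRX5 (-0.58 ± 0.46, adjusted p = 0.28) did not pass; IRX5 did so without 48 h Dox replicate 3 (-1.28, adjusted p = 0.0448).

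Without doxycycline the genes moved too. In NoDox cells at 24 h against day 10, UNCX and BARHL2 rose and IRX1, IRX2 and IRX3 fell, where 8.84% of all tested features were called higher and 8.47% lower. UNCX was at 23.8 ± 3.01 CPM in 24 h NoDox cells and 11.3 ± 1.34 CPM at day 10 (log2 fold change 1.09 ± 0.14, adjusted p = 1.79e-06). BARHL2 was at 4.72, 2.10 and 1.96 CPM in 24 h NoDox libraries, against 1.20, 0.308 and 0.884 CPM at day 10, with no overlap (1.99 ± 0.47, adjusted p = 0.00487). Its call was lost without NoDox replicate 1, the highest library (1.42, adjusted p = 0.0564). IRX3 was at 1.42 ± 0.549 CPM in 24 h NoDox cells and 3.73 ± 0.689 CPM at day 10 (-1.44 ± 0.23, adjusted p = 4.84e-05).

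The falls of IRX1 (-0.53 ± 0.16, adjusted p = 0.0231, with overlapping libraries) and IRX2 (-0.34 ± 0.10, adjusted p = 0.0214) in that comparison were less firm. IRX1 was not called without day 10 replicate 2 (-0.37, adjusted p = 0.183), NoDox replicate 1 (-0.37, 0.184) or NoDox replicate 2 (-0.48, 0.0867), and IRX2 was not called without those libraries (-0.34, 0.0624; -0.30, 0.106; -0.31, 0.0833) or without day 10 replicate 3 (-0.33, 0.059). IRX1 was also not called with only the 2 groups compared in the fit (-0.53, adjusted p = 0.0891), nor IRX2 without the filter (-0.33, 0.059). DBX1 (1.17 ± 0.45, adjusted p = 0.0729) and IRX5 (-0.67 ± 0.41, adjusted p = 0.281) did not pass.

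At 48 h against day 10 in NoDox cells, UNCX and DBX1 were higher and IRX3 and IRX5 lower, where 21.4% of all tested features were called higher and 20.2% lower. UNCX was at 21.5 ± 0.269 CPM in 48 h NoDox cells and 11.3 ± 1.34 CPM at day 10 (0.94 ± 0.14, adjusted p = 4.22e-06). IRX3 was at 1.20 ± 0.282 CPM in 48 h NoDox cells and 3.73 ± 0.689 CPM at day 10 (-1.65 ± 0.25, adjusted p = 4.24e-06). DBX1 had 14, 13 and 11 reads in 48 h NoDox libraries, against 3, 6 and 7 reads at day 10 (1.29 ± 0.47, adjusted p = 0.0271). IRX5 had 5, 4 and 11 reads in 48 h NoDox libraries, against 12, 20 and 17 reads at day 10 (-1.23 ± 0.46, adjusted p = 0.0323). The calls of DBX1 and IRX5 were both lost without day 10 replicate 1 (1.19, adjusted p = 0.067, and -1.22, 0.054), day 10 replicate 2 (1.28, 0.0749, and -1.17, 0.0871), day 10 replicate 3 (1.42, 0.0509, and -1.30, 0.0515), NoDox replicate 1 (1.20, 0.0821, and -1.07, 0.114) or NoDox replicate 2 (1.28, 0.0566, and -0.96, 0.141). Both were also lost by DESeq2's Wald test (adjusted p = 0.071 and 0.0504), and DBX1 without the filter (1.28, 0.0918). BARHL2 (0.95 ± 0.52, adjusted p = 0.153), IRX1 (-0.07 ± 0.16, 0.763) and IRX2 (0.21 ± 0.10, 0.1) did not pass; BARHL2 did so without the filter (0.94, adjusted p = 0.0364).

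The order of the group means differed between genes. UNCX and BARHL2 were highest in 24 h NoDox cells, with 24 h and 48 h NoDox libraries apart. For UNCX the 48 h Dox group, at 10.2 CPM, overlapped day 10, at 11.3 CPM, below all 3 NoDox groups. IRX1 was highest in 48 h Dox cells, apart from the next group; behind it, 12 h NoDox, day 10, 48 h NoDox and 24 h NoDox cells overlapped in turn. IRX3 was highest in 24 h Dox cells, at 4.35 CPM, overlapping day 10 at 3.73 CPM. All neighbouring groups of IRX5 overlapped.

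Tested features within 100 kb of the genes were these. LINC02609, a long non-coding RNA 51.8 kb from BARHL2, was called lower in Dox cells at 24 h and 48 h. It was at 1.01 CPM in Dox cells and 8.12 CPM in NoDox cells at 24 h (-3.01 ± 0.27, adjusted p = 3.03e-09). At 48 h it was at 4.42 CPM in Dox cells and 12.9 CPM in NoDox cells (-1.54 ± 0.22, adjusted p = 2.26e-05). BARHL2 was also lower at 48 h (-1.20 ± 0.55) without passing, and a difference between the 2 genes was not tested. NAV2, a cytoskeletal regulator of neurite growth 34.6 kb from DBX1, went the other way from DBX1 at 24 h, with 47.6 CPM in Dox cells and 18.4 CPM in NoDox cells (1.37 ± 0.12, adjusted p = 2.53e-10). At 48 h NAV2 did not pass (0.19 ± 0.12, adjusted p = 0.324). IRX2-DT, which starts 0.5 kb from IRX2 on the opposite strand, did not pass at 24 h (-0.04 ± 0.26, adjusted p = 0.929) or at 48 h (0.72 ± 0.26, 0.0545). CRNDE, 1.7 kb from IRX5 on the opposite strand, did not pass at 24 h (0.21, adjusted p = 0.0883) or 48 h (-0.01, 0.953). ENSG00000289075, 4.8 kb from IRX2 on the opposite strand, did not pass at 24 h (0.29 ± 0.57, adjusted p = 0.748) or 48 h (-0.45 ± 0.94, 0.791). Near UNCX, C7orf50, 94.6 kb away, was at 52.7 CPM in Dox cells and 44.3 CPM in NoDox cells at 24 h (0.25 ± 0.07, adjusted p = 0.0102) and did not pass at 48 h (-0.06 ± 0.08, 0.652). ZFAND2A, 72.1 kb from UNCX, did not pass at 24 h (-0.13 ± 0.16, adjusted p = 0.587) or 48 h (0.34 ± 0.15, 0.133), nor did ZFAND2A-DT, 67.3 kb away (-0.11 ± 0.19, 0.696, and 0.01 ± 0.25, 0.986). Unnamed features overlapping IRX1 and IRX3 on the opposite strand averaged 0.0047 and 0.0357 CPM; no source used here gives the strand setting of the counts, so reads of overlapping features cannot be told apart.

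Among relatives of the 7 genes, the Iroquois and DBX relatives and BARHL1 had few reads, whereas BARX1 did not. IRX4 and IRX6, the remaining Iroquois genes, and MKX, another TALE gene, averaged at most 0.141, 0.0289 and 0.114 CPM in any group, and none of the 3 passed the filter. DBX2, the paralogue of DBX1, also failed it, with 36 reads in 24 h Dox cells and 12 in 24 h NoDox cells, no overlap and no test. BARHL1, the paralogue of BARHL2, had at most 2 reads in any group. BARX1, another BAR-class gene, averaged between 4.25 and 15.7 CPM in the 7 groups; it was at 7.55 CPM in Dox cells and 9.52 CPM in NoDox cells at 24 h (-0.35 ± 0.21, adjusted p = 0.219), and at 15.7 CPM in Dox cells and 12.3 CPM in NoDox cells at 48 h (0.36 ± 0.20, 0.24). BARX2 averaged at most 0.682 CPM and did not pass at 24 h (1.32 ± 0.73, adjusted p = 0.17) or 48 h (0.19 ± 0.50, 0.837).

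Genes of the ventral pallium and its boundary with the subpallium, where DBX1 is made in mouse, did not move as one. At 24 h, 2 of 8 were called higher in Dox than in NoDox cells and 3 lower, with a median log2 fold change of -0.29. At 48 h 3 were called higher and 0 lower, with a median of 0.26. The medians over all features were -0.00 and 0.01. Of all tested features, 17% were called higher and 16.9% lower at 24 h, and 9.23% higher and 8.94% lower at 48 h. PAX6, a paired homeobox factor of pallial progenitors, was at 130 CPM in Dox cells and 247 CPM in NoDox cells at 24 h (-0.92 ± 0.07, adjusted p = 3.6e-12), but at 219 CPM in Dox cells and 212 CPM in NoDox cells at 48 h (0.05 ± 0.07, 0.666). FGF7, a fibroblast growth factor, had 0 reads in the 3 Dox libraries at 24 h, against 70 reads in the 3 NoDox libraries. SFRP2, a secreted WNT antagonist, was higher in Dox than in NoDox cells at 24 h (0.38 ± 0.08, adjusted p = 0.00035), as was the ligand NRG1 (1.04 ± 0.10, 3.88e-09). SFRP2 was at 192 CPM in 24 h Dox cells, 148 CPM in 24 h NoDox cells and 219 CPM at day 10. NRG1 was at 29.3, 14.2 and 10.7 CPM in the same 3 groups. LMO3, a LIM-only factor, was called at 48 h (0.85 ± 0.12, adjusted p = 7.57e-06).

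Markers of neighbouring territories were set beside the 7 genes, and their part in the results was not tested. Over all tested features, the shares called higher and lower were 17% and 16.9% at 24 h, and 9.23% and 8.94% at 48 h. Of 5 tested thalamic and diencephalic markers, 2 were called higher in Dox than in NoDox cells and 3 lower at 24 h, with a median of -0.59. At 48 h 1 was called higher and 3 lower, with a median of -0.70. LHX9, a LIM homeobox factor of the thalamus, was at 0.778 CPM in Dox cells and 9.11 CPM in NoDox cells at 24 h (-3.53 ± 0.25, adjusted p = 3.91e-12) and was also lower at 48 h (-1.43 ± 0.23, 7.14e-05). The 2 of these 5 called higher at 24 h were OTX2 (0.19 ± 0.06, adjusted p = 0.00947) and TCF7L2 (0.20 ± 0.07, 0.0403). OTX2 was also higher at 48 h (0.20 ± 0.06, adjusted p = 0.0125), and TCF7L2 did not pass (0.06 ± 0.07, 0.654). Of 7 hypothalamic and eye field markers, 2 were called higher in Dox than in NoDox cells and 4 lower at 24 h, and 1 higher and 4 lower at 48 h. OTP, a hypothalamic homeobox factor, had log2 fold changes of -1.89 ± 0.21 at 24 h (adjusted p = 2.6e-08) and -1.44 ± 0.23 at 48 h (3.62e-05). The 2 of these 7 called higher at 24 h were VAX1 and RAX. VAX1, a homeobox factor of the ventral forebrain and optic stalk, was at 124 CPM in Dox cells and 26.5 CPM in NoDox cells (2.23 ± 0.10, adjusted p = 7.39e-16). RAX, a homeobox factor of the eye field, was at 15.4 CPM in Dox cells and 6.20 CPM in NoDox cells (1.32 ± 0.14, adjusted p = 1.31e-08). VAX1 was also higher at 48 h (0.63 ± 0.10, adjusted p = 7.24e-05), and RAX did not pass (0.42 ± 0.16, 0.0682). SIX3 was higher in Dox cells at 24 h, as IRX3 was, with 389 CPM in Dox cells and 209 CPM in NoDox cells (0.89 ± 0.08, adjusted p = 7.86e-10), and did not pass at 48 h (0.18 ± 0.08, 0.141).

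The summed level of 5 neuron markers was 1307 to 1480 CPM in Dox libraries and 1784 to 2031 CPM in NoDox libraries at 24 h, and 1905 to 2103 CPM in Dox libraries and 1734 to 2053 CPM in NoDox libraries at 48 h. At 24 h 4 of these 5 were called lower in Dox than in NoDox cells and 0 higher. Of all tested features, 16.9% were called lower and 17% higher in that comparison. In NoDox cells 5 of 5 were called higher at 24 h than at day 10, where 8.84% of all tested features were. The 4 neural crest markers summed to 25.8 to 35.7 CPM in Dox libraries and 7.60 to 9.68 CPM in NoDox libraries at 24 h, mostly from SOX10, beside the higher IRX3. Of 2 tested, 2 were called higher in Dox than in NoDox cells, where 17% of all tested features were. The 7 midbrain and hindbrain markers summed to 0.566 to 1.22 CPM in Dox libraries and 0.755 to 1.14 CPM in NoDox libraries at 24 h, with EN1 and HOXB2 at 0 reads in both groups. The 5 paraxial mesoderm markers summed to 5.29 to 6.63 CPM in Dox libraries and 5.48 to 6.97 CPM in NoDox libraries at 24 h, with TBXT at 0 reads in both. The 6 cortical hem and roof plate markers summed to 10.8 to 13.1 CPM in Dox libraries and 18.2 to 22.9 CPM in NoDox libraries at 24 h. WNT2B was at 6.43 CPM in Dox cells and 16.2 CPM in NoDox cells at 24 h, and WNT3A at 3.2 and 3.1 CPM. Of 5 tested, 2 were called higher in Dox than in NoDox cells (BMP4 and WNT8B) and 1 lower (WNT2B) at 24 h. At 48 h 1 was called higher (BMP4) and 1 lower (WNT2B), where 9.23% of all tested features were called higher and 8.94% lower. The 4 markers of Cajal-Retzius cells summed to 18.5 to 22.6 CPM in Dox libraries and 25.1 to 25.9 CPM in NoDox libraries at 24 h, and to 25.8 to 30.1 CPM in Dox libraries and 15.8 to 20.0 CPM in NoDox libraries at 48 h. Of these 4, 1 was called lower in Dox than in NoDox cells at 24 h and 1 higher at 48 h, RELN in both cases. The telencephalic and LGE markers that the label calls for had reads at 24 h. The 6 telencephalic markers summed to at least 6202 CPM in Dox libraries and 6002 CPM in NoDox libraries. Much of that was NES (1858 and 1274 CPM) and VIM (2129 and 2207 CPM). The 8 LGE markers, GSX2 among them, summed to at least 436 CPM in Dox libraries and 390 CPM in NoDox libraries. SP8 was the highest (192 and 153 CPM). Of the 6, 3 were called higher in Dox than in NoDox cells and 2 lower. Of the 8, 2 were called higher and 4 lower. GSX2 was at 6.28 CPM in Dox cells and 12.7 CPM in NoDox cells (-1.04 ± 0.22, adjusted p = 0.00147).

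For each gene the tested features with the most similar profile were taken by Pearson's r of log2 CPM over the 21 libraries, which share the same 7 groups, so r reflects group differences as well as spread within groups. UNCX was most like EMX2 (r = 0.979), PARM1 (0.974) and EDNRB (0.971). BARHL2 was most like CNR1 (0.936), NYAP2 (0.934) and PCSK2 (0.932), and DBX1 was most like OTP (0.932), CHRNA3 (0.916) and CPLX2 (0.900). IRX1 was most like TBC1D9 (0.956), MIDN (0.954) and COL4A2 (0.952), and IRX2 was most like PRPF39 (0.947), DIS3 (0.944) and GOLT1B (0.941). IRX3 was most like WNT5B (0.888), SMOC1 (0.830) and LINC00511 (0.827), and IRX5 was most like TOP3A (0.766), TMEM209 (0.762) and MAPKAPK5 (0.737). No gene among the 7 was in the 3 most similar features of another. With 3 places among 19655 tested features, nothing is read from that. The 21 libraries include those of the 12 h contrast, which chose the genes.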

How the data were processed

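The deposited counts are whole reads per feature on hg38; the tools named in the submitters' processing notes include STAR 2.7.9, Subread 2.0.3 and DESeq2, while annotation and strand setting are not given. Signal values, also deposited, are normalized: each is the count over 1 factor per sample in 21 of 21 samples, as tested on the values. They cover the 19874 features that reach 10 counts in 3 or more samples and were used as an alternative, as log2(value + 1) in limma 3.58.1.

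Counts were tested with edgeR 4.0.16 (R 4.3.3): TMM scaling, filterByExpr, robust quasi-likelihood F test, all 7 groups in 1 fit with 14 residual degrees of freedom, and Benjamini-Hochberg adjustment over 19655 features (99.92% of counts) at 0.05. The SE is the absolute log2 fold change over the square root of F and is rough at few reads. In all, 6 comparisons were tested in this fit, and the 12 h contrast was described only. Ratios of Iroquois genes were compared apart from the fit, by an exact permutation test at 24 h and 48 h. Intervals and floors cover counting error only where they come from reads.

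The genes, gene lists and tests were chosen with earlier results of these data known. All 7 genes are named, with the 3 most similar features of each (clone-style names left out) and the tested neighbours within 100 kb; the lists are given by counts or summed levels, with examples. Alternatives were other scalings, no filter, DESeq2 1.42.0, a replicate block, only the groups compared, and each library left out; leaving out the 12 h Dox replicate 3 throughout was added after seeing the data. Simulated data were used to check the fit. Promoter windows came from RefSeq.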

Additional observations from a re-analysis of the deposited data

Results flagged for a closer look

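The effect of doxycycline differed between 48 h and 24 h, by an interaction test in the edgeR fit, for UNCX, BARHL2 and IRX1. UNCX differed by 2.59 on the log2 scale (adjusted p = 1.86e-09), with Dox cells at 47.4% of the NoDox level at 48 h and 7.90% at 24 h. BARHL2 differed by 4.08 (adjusted p = 0.00441), a value that rests on 5 reads in the 24 h Dox group. IRX1 differed by 1.65 (adjusted p = 9.2e-06), with Dox cells at 148% of the NoDox level at 48 h and 46.4% at 24 h.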

How the results depend on the processing

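No called result on the 7 genes changed direction under the alternatives run. Of 625 values for 42 gene results under the alternatives, 584 kept their side of the threshold, 33 lost the call and 8 gained it. The number of genes called was 5 at 24 h under every alternative run. At 48 h it was 5, and leaving out a library gave 2 to 5. For the difference of effects it was 3, and leaving out a library gave 3 to 4. For NoDox 24 h against day 10 it was 5, with 2 to 5 when a library was left out, and for NoDox 48 h against day 10 it was 4, with 2 to 4 when a library was left out and 2 by DESeq2's Wald test. For Dox 48 h against Dox 24 h it was 5, with 5 to 6 when a library was left out. Leaving out the 12 h Dox replicate 3, chosen after seeing the data, changed no call. Over all features, 1738 were called higher and 1664 lower for NoDox 24 h against day 10, and 1118 and 945 without NoDox replicate 1; at 48 h the count called higher in Dox than in NoDox cells, 1814, was 1041 without NoDox replicate 2 and 1056 without Dox replicate 1. The cause was not tested.

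Same-numbered libraries correlated by -0.026 to 0.086 in their deviations over all tested features, and the numbers were not treated as pairs. Yet over all tested features 6 of 6 samples correlated best with their own number for Dox against NoDox, at 24 h and at 48 h. It was 5 of 6 for Dox 48 h against Dox 24 h. For NoDox against day 10 it was 4 of 6 at 24 h and 2 of 6 at 48 h. Over the 13146 features with a mean log2 CPM above 2, Dox and NoDox libraries correlated by 0.242, 0.106 and 0.102 at 24 h and by 0.255, 0.178 and 0.062 at 48 h. In that set 6 of 6 samples at 24 h and 5 of 6 at 48 h correlated best with their own number. Between NoDox and day 10 libraries it was 5 of 6 at 24 h and 2 of 6 at 48 h. This is a hint from the data and not the design. With the replicate block, 41 of 42 gene results kept their side of the threshold, and BARHL2 at 48 h (-1.20) was called; the block gave 6 genes called at 48 h and 5 at 24 h. Depth limits DBX1, BARHL2 and IRX5, where single groups held as few as 1 to 5 reads, or 20 for IRX5.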
